A study of Saccharomyces cerevisiae with 66 samples.

Results

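Chromosome VII of the budding yeast Saccharomyces cerevisiae carries 455 of the 4828 nucleosome-depleted regions (NDRs) for which the study deposited values. An NDR is a short stretch of DNA, usually at a promoter, that is kept free of nucleosomes. All NDRs whose identifier places them on chromosome VII were taken, and no measured value entered this choice. They were read by MTAC. An array of LacO sites next to a chosen gene, the viewpoint (VP), recruits the methyltransferase M.CviPI through a LacI fusion. Accessible DNA that meets the VP gains methyl groups on cytosines of GC dinucleotides, and an antibody to 5-methylcytosine pulls this DNA out for sequencing (MeDIP-seq). The question put to these NDRs was how the signal along chromosome VII depended on where the VP lay.

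The targeted strains used here carried 256 LacO copies, marked by HIS3, at YBP2, PUS2, OLE1, CDC43 or PCL10 on chromosome VII. The strains set against them carried the same array at SHC1 or LSM4 on chromosome V, at VHR1 on chromosome IX, or at LHS1, MBR1 or MNR2 on chromosome XI. All 11 strains were MATa, and all strains including the controls without LacO sites shared the auxotrophic and marker alleles ura3-1, trp1-1, ade2-1, can1-100 and his3-11,15 and the leu2 allele of the W303 background. All also carried, at ADH1 and marked by LEU2, the LacI-M.CviPI fusion behind a GAL1 core promoter with lexO sites, together with a LexA activator that β-estradiol switches on. Cells grew in synthetic medium, β-estradiol was added to 2 nM for 2 h, and there were 2 libraries per strain. The labels do not say whether the medium of these 11 strains held methionine, and among them the study's text gives it for SHC1 alone, which was read without methionine. Further tables cover YBP2 with 4, 8, 16 and 256 LacO copies after 1 h, a VP at TRP2 on chromosome V without and with methionine, and a VP at TAF2 beside the mating-type locus MAT on chromosome III in MATa and MATalpha cells, grown in galactose or glucose, which also carried HO, the endonuclease of mating-type switching, behind the GAL10 promoter. The galactose cells went through switching: HO was induced in galactose and shut off again in glucose, so they are a mixture of mating types named by the type they began with, while the glucose cells were not switched. Each VP was read from 1 array insertion.

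Each of the 21 tables gives 1 base mean per NDR, the mean of the normalised read counts over the targeted and the control libraries of that comparison. A base mean therefore holds the control libraries too, has no replicate error of its own, and understates a change in the targeted libraries. No p-value was computed from it. The base means were scaled between tables by the median ratio over all NDRs, and the ratio of a VP table to the median of the 6 tables of VPs on other chromosomes, the reference tables, was taken on the log2 scale after adding 1. An NDR is called raised where its scaled base mean was over 1.5 times the reference median and above all 6 reference tables. It is called lowered in the mirrored case. A contact that VPs on other chromosomes share lifts the reference too, so this rule can leave it uncalled. The spread of the 6 reference tables was used as a yardstick in place of replicate error, which it does not measure. The labels name 1 control pair for these tables, so error of the control libraries is left out of the spread, while differences between VPs enter it. Since each table was normalized on its own by the authors, levels set across tables rest on the scaling given above. NDRs within 30 kb of the midpoint of the VP gene are called local.

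Distance along the chromosome is the main determinant of contact in a flexible polymer, so loci near a VP meet it often in any cell. Yeast chromosomes are in addition tethered at their centromeres to the spindle pole body and at their telomeres to the nuclear envelope, an arrangement known as the Rabl configuration, in which loci at like distances from the centromere can come close. Beyond such general folding, active promoters can contact one another over long distances. The genes of methionine and cysteine metabolism are a well known coregulated group in yeast, turned on by the activator Met4 with its DNA-binding partners Cbf1 and Met31 or Met32. MUP1 (high-affinity methionine permease), STR3 (cystathionine beta-lyase), MET13 (methylenetetrahydrofolate reductase) and CYS4 (cystathionine beta-synthase) of this group lie on chromosome VII.

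The 455 NDRs had a median length of 178 bp, between 47 and 821 bp, and 436 of them lay within 1 kb of a gene start. Their neighbouring midpoints were a median of 1.92 kb apart, 206 lay left and 249 right of the centromere CEN7 at chrVII:496920-497038. M.CviPI methylates GC dinucleotides, of which the median NDR held 6. There were 11 NDRs that held none, and the most was 58. Across the 455 NDRs Spearman's rho between the number of GC dinucleotides and the reference level was 0.66, and between length and level it was 0.41. These are descriptions over NDRs that share libraries. Of the 455 NDRs, 430 had a mean scaled base mean of at least 10 over the 11 tables and were used for calls, as were 4196 NDRs on the other chromosomes. The PKP2 NDR passed that minimum through the YBP2 table alone, and it was the only one of the 430 with a reference median under 10.

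An NDR with strong signal close to each VP is shown first, the highest local ratio from each VP except OLE1, where it is the second highest, because they are short stretches with very different numbers of target sites. The sequences are the plus strand of chromosome VII in the S288C reference (RefSeq, build R64, the same assembly as sacCer3), while the strains were W303. GC dinucleotides are in capitals. In order they are the NDR at chrVII:392018-392166 before PKP2 (kinase of pyruvate dehydrogenase, in mitochondria), at chrVII:383227-383404 between MRH4 (mitochondrial RNA helicase) and PUS2 (mitochondrial pseudouridine synthase), at chrVII:401365-401608 near a tRNA gene and ERV14 (cargo receptor of COPII vesicles), at chrVII:216101-216223 between LYS5 (lysine biosynthesis) and PEX14 (peroxisomal import), and at chrVII:257271-257439 before ITC1 (subunit of the Isw2 chromatin remodeler).
PKP2: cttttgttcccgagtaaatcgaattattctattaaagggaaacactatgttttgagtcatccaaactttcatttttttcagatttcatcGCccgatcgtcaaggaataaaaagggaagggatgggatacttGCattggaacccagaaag
MRH4/PUS2: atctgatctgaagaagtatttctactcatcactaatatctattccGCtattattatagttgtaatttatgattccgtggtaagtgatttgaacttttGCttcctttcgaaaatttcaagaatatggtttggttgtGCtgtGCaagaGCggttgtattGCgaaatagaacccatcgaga
tRNA gene and ERV14: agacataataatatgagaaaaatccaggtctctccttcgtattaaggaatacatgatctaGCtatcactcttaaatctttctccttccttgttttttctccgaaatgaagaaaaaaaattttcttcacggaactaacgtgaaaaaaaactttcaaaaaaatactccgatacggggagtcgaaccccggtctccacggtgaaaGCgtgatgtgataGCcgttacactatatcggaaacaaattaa
LYS5/PEX14: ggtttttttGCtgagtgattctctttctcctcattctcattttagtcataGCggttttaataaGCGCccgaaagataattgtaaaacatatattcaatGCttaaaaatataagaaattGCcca
ITC1: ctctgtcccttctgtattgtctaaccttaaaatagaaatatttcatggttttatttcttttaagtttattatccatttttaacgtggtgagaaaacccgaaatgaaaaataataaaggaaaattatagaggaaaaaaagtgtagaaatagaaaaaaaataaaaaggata
The ITC1 stretch held 0 GC dinucleotides, the PKP2 stretch 2 and the stretch by ERV14 3, while those of MRH4/PUS2 and LYS5/PEX14 held 6 each. Sequenced fragments were mostly longer than these NDRs, and a read was counted to every NDR it overlapped, so a count can come from methylated sites outside the printed letters.

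The NDRs that stood out far from a VP were of another kind. They are shown because 5 of the 9 NDRs raised beyond 30 kb belong to STR3, MET13 and MUP1. Here the capitals mark the core motif of Cbf1 (CACGTG) and that of Met31 and Met32 (CTGTGG, or CCACAG on the other strand). The STR3 NDRs are chrVII:156076-156181 and chrVII:156271-156493, the second also next to MND1. Of the MET13 NDRs the stretch by SCS3 is chrVII:271337-271579, and of the longer one chrVII:271748-272047 is shown. Of the MUP1 NDR, chrVII:598844-599143 is shown. For NDRs over 300 bases the 300 bases with the most matches were taken.
STR3: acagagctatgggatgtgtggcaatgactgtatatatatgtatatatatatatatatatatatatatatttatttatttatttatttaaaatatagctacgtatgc
STR3/MND1: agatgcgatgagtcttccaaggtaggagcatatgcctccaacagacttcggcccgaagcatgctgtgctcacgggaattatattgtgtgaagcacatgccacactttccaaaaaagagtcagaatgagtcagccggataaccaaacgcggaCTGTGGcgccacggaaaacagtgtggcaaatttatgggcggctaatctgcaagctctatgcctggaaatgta
SCS3/MET13: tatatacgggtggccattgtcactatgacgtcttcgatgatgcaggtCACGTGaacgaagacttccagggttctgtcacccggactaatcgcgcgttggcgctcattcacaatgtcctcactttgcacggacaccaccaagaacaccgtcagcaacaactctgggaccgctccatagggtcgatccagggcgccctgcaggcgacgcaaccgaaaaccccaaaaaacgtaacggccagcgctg
MET13: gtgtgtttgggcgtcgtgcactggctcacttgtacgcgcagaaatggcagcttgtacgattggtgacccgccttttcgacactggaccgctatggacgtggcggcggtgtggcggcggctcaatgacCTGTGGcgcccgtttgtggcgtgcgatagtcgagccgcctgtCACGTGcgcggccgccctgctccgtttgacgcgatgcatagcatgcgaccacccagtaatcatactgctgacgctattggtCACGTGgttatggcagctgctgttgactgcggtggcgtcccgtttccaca
MUP1: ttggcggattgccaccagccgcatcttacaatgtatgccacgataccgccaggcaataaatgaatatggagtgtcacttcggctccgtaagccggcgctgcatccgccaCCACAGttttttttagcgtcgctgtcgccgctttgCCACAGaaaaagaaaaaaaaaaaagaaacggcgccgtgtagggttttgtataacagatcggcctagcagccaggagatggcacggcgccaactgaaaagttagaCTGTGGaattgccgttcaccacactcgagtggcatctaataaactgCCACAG
CACGTG occurred in 18 of the 455 NDRs (3.96%) and CTGTGG on either strand in 25 (5.49%). No CACGTG overlaps a CTGTGG in the printed stretches. Among the 177 NDRs of at least 200 bp the shares were 7.34% and 10.2%. The whole MUP1 NDR held 4 copies of CTGTGG and 0 of CACGTG, the whole longer MET13 NDR 2 of each, the SCS3/MET13 NDR 1 CACGTG, and the STR3/MND1 NDR 1 CTGTGG. The short STR3 NDR held neither. A match is a description of the letters and does not show that a factor binds there.

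From the 5 VPs on chromosome VII, 51 raised calls fell on chromosome VII and 3 on all other chromosomes together. They named 35 of the 430 NDRs, 13 of them from at least 2 VPs. By the same rule, with each of the other 6 VPs set against the remaining 5 of their group, 0 of the 430 chromosome VII NDRs were raised from SHC1, LSM4, VHR1, LHS1, MBR1 or MNR2. Those tables were not without raised NDRs: over all 4626 NDRs tested the share was 0.411% from SHC1, 0.0865% from LSM4, 0.367% from VHR1, 0.173% from LHS1, 0.324% from MBR1 and 0.476% from MNR2. Of the 22 raised from MNR2, 14 lay on chromosomes other than its own. The 3 NDRs raised elsewhere from VPs on chromosome VII were those of YAT1/MST28 on chromosome I and PHR1 on chromosome XV from OLE1, and that of RPA135 on chromosome XVI from CDC43, each with a log2 ratio between 0.59 and 0.60. The share of the summed base mean that fell on chromosome VII was 11.5% to 12.1% in the 5 tables. In the 6 reference tables it was 10.3% to 10.8%. Contacts shared between VPs can escape these calls, so low counts away from a VP's own chromosome do not show that contacts there were few. Set against its own control, YBP2 had many contacts on other chromosomes in the study.

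**Figure D1:**
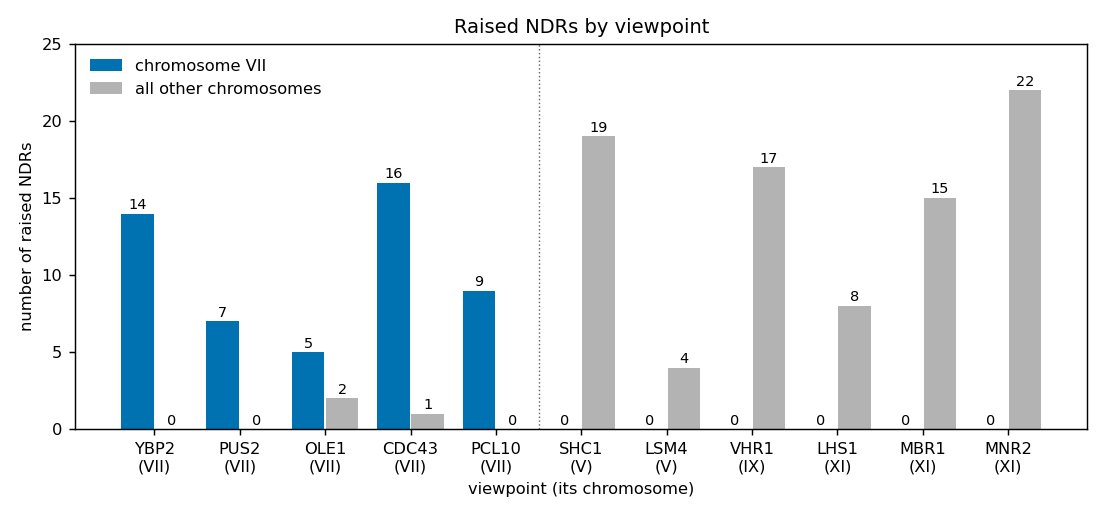
Number of raised NDRs (y axis) on chromosome VII (blue) and on all other chromosomes together (grey) from each VP (x axis, its chromosome in brackets). The 5 VPs on chromosome VII gave 5 to 16 raised NDRs there and 0 to 2 elsewhere, and the 6 other VPs gave 0 on chromosome VII.

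The local peak was widest in number of NDRs at YBP2, where 12 of 28 local NDRs were raised, against 0.303% of all NDRs tested (14 of 4626). The NDR before PKP2, 1.06 kb from the midpoint of YBP2, had a scaled base mean of 249 in the YBP2 table. It had 8.86, 5.01, 9.48 and 9.21 in the PUS2, OLE1, CDC43 and PCL10 tables, and 6.29 to 8.62 in the reference tables (median 7.10). This NDR was thus among the lowest of the chromosome everywhere except beside its own VP. Its log2 ratio of 4.95 was the highest on chromosome VII in the 5 tables. It entered the calls only through its value in the YBP2 table, so its call, which is among the 12, was not independent of the minimum. Towards OLE1, the NDRs by RAD6 (ubiquitin-conjugating enzyme of DNA repair) and GEP7 had log2 ratios of 1.12 and 1.47 at 2.78 and 3.83 kb, with scaled base means of 26.8 and 41.5 in the YBP2 table against reference medians of 11.8 and 14.4.

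The promoter shared by SDS23 and OLE1 (the fatty acid desaturase) lay 6.96 kb from YBP2 and reached 2478 in the YBP2 table. It had 1613 in the OLE1 table, whose VP lay 1.41 kb away, 1210 in the PUS2 table at 13.8 kb, and 867 and 780 in the CDC43 and PCL10 tables. The reference tables held it between 709 and 784. It was thus called from all 3 VPs of the cluster and was highest not from the VP beside it but from YBP2. The 30 kb windows of these 3 VPs overlap, so they share most of their local NDRs.

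At PUS2, 6 of 27 local NDRs were raised, against 0.151% of all NDRs tested. The MRH4/PUS2 NDR had 705 in the PUS2 table, 121, 93.9, 83.5 and 71.8 in the YBP2, OLE1, CDC43 and PCL10 tables, and 72.02 to 82.2 in the reference tables. Its log2 ratio was 3.18. On the other side of the gene, the NDR of PYC1 (pyruvate carboxylase) had 1732 in the PUS2 table and 1168 in the YBP2 table, 811 in the OLE1 table, 684 and 661 in the CDC43 and PCL10 tables, and 594 to 656 in the reference tables. The order of its values followed the order of the distances of the 3 nearby VPs. The NDR of AFT1, which encodes the iron-responsive activator, had 697 in the PUS2 table at 12.9 kb and 675 in the YBP2 table at 19.7 kb, against 286 to 410 in the reference tables. The ALG2 NDR (mannosyltransferase of N-glycosylation) had 76.2 in the PUS2 table and 33.0 to 42.3 in the reference tables.

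At OLE1, 4 of 28 local NDRs were raised, again against 0.151% of all NDRs. The ERV14 NDR at chrVII:400179-400631, 1.01 kb away, had 423 in the OLE1 table, 127 and 127 in the YBP2 and PUS2 tables, 115 and 104 in the CDC43 and PCL10 tables, and 94.5 to 108 in the reference tables. Its log2 ratio was 2.06, and that of the neighbouring NDR by the tRNA gene, 2.09 kb away, was 1.61 (90.6 in the OLE1 table against 26.8 to 36.7 in the reference tables). The PKP2 NDR, 7.30 kb from OLE1, was not raised from there, with a log2 ratio of -0.43 and a scaled base mean of 5.01.

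At CDC43, 9 of 17 local NDRs were raised, against 0.367% of all NDRs, and all 17 had ratios above 0. The LYS5/PEX14 NDR had 506 in the CDC43 table, 76.0, 75.9, 70.6 and 78.4 in the YBP2, PUS2, OLE1 and PCL10 tables, and 66.0 to 83.1 in the reference tables. The next NDR, by NUT1 (a Mediator subunit), had 115 in the CDC43 table against 36.6 to 41.1 in the reference tables. The NDRs of RPL9A and RRT6 and of ARO2 (chorismate synthase), 13.9 and 11.6 kb away, had log2 ratios of 1.13 and 1.04.

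At PCL10, 6 of 21 local NDRs were raised, against 0.195% of all NDRs. The ITC1 NDR had 216 in the PCL10 table, 11.4, 12.7, 11.1 and 15.5 in the YBP2, PUS2, OLE1 and CDC43 tables, and 8.84 to 15.9 in the reference tables, a log2 ratio of 3.92. The remaining local calls with large ratios were the 3 NDRs of SOH1, SCS3 and MET13 at 14.6 to 15.8 kb, with 1.12, 1.41 and 1.91. They stood above the NDRs nearer to PCL10 on the other side, those of RPL1B (0.70) and of PCL10 itself (0.78).

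**Figure D2:**
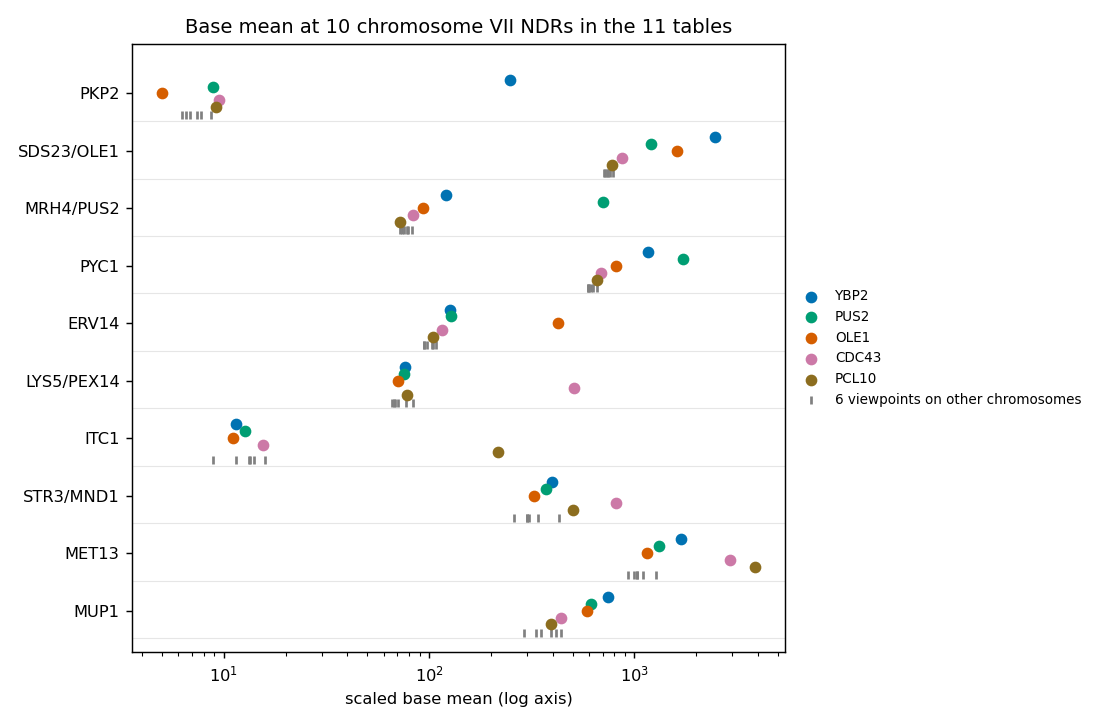
Scaled base mean (x axis, log axis) of 10 chromosome VII NDRs (y axis) in the 5 tables of VPs on chromosome VII (coloured points) and in the 6 tables of VPs on other chromosomes (grey ticks). The PKP2 NDR stands at 249 in the YBP2 table and between 5.01 and 9.48 in every other table shown, while MUP1 is above the grey ticks in the YBP2, PUS2 and OLE1 tables only.

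The ratio declined steeply with distance. Within 5 kb the median log2 ratio was 0.89 from YBP2, 1.24 from PUS2, 0.78 from OLE1, 1.56 from CDC43 and 0.78 from PCL10, over 3 to 6 NDRs each. Between 20 and 30 kb it was 0.30, 0.14, 0.23, 0.25 and 0.25 in the same order, over 4 to 10 NDRs. In these bins the medians of the 6 other VPs lay between -0.13 and 0.22 within 5 kb and between -0.11 and 0.07 at 20 to 30 kb. At 50 to 100 kb the medians of CDC43 and PCL10 were still 0.12 and 0.11, where the other VPs reached at most 0.04 and 0.03, whereas those of YBP2, PUS2 and OLE1 were -0.00, 0.04 and 0.03. Beyond 200 kb all 5 medians lay between 0.02 and 0.03. The decline was not even: from PCL10 the bin of 10 to 20 kb, which holds the MET13 NDRs, had a median of 0.69 over 6 NDRs, above the 0.27 of the 2 NDRs at 5 to 10 kb.

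**Figure D3:**
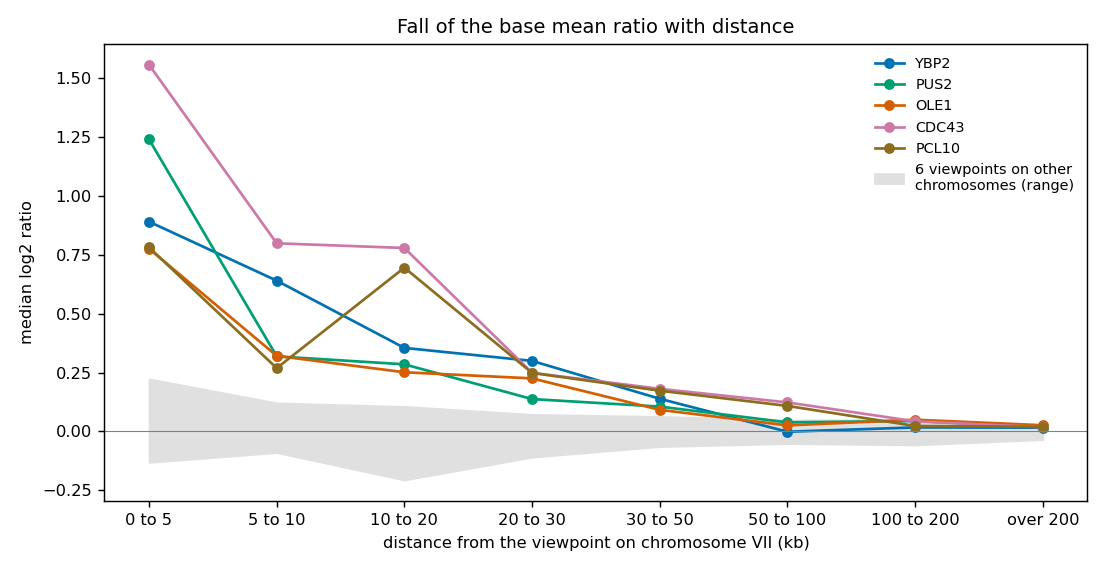
Median log2 ratio (y axis) of chromosome VII NDRs in bins of distance from the VP (x axis, kb), 1 line per VP, with the range of the same medians from the 6 VPs on other chromosomes in grey. All 5 lines lie above the grey band up to 30 kb and come close to 0 beyond 100 kb, and the first bins hold only 2 to 10 NDRs each.

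Local NDRs did not respond alike. From YBP2, 26 of 28 local NDRs had ratios above 0, but the SGF73 NDR had -0.24 and an RPT6 NDR -0.14. From OLE1 the SGF73 NDR had -0.19 and PKP2 the -0.43 given above. SGF73 and RPT6 were picked out after their values were seen. Over all local NDRs the median log2 ratio was 0.38 from YBP2, 0.24 from PUS2, 0.29 from OLE1, 0.76 from CDC43 and 0.29 from PCL10. The medians over all 4626 NDRs were 0.00 from each of the 5, where the scaling holds them.

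Beyond 30 kb, the median NDR of chromosome VII was hardly shifted, with 0.02 from YBP2, 0.03 from PUS2, 0.03 from OLE1, 0.04 from CDC43 and 0.03 from PCL10. Of these NDRs 57.5% to 60.6% had ratios above 0, depending on the VP. Raised calls there were few: 2 of 402 from YBP2, 1 of 403 from PUS2, 1 of 402 from OLE1, 7 of 413 from CDC43 and 3 of 409 from PCL10. They fell on 9 NDRs, 4 of which were raised from at least 2 VPs. The count from OLE1 was 0 when the LSM4, MBR1 or MNR2 table was left out of the reference. The rule here sets VPs against each other and uses base means that hold the control libraries. Set against its own control, YBP2 had more contacts beyond 30 kb on chromosome VII in the study. Few raised calls thus do not show that far contacts were few.

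The STR3 NDRs were among the strongest of them. The NDR at chrVII:156076-156181 had 235 in the CDC43 table, whose VP was 58.5 kb away, and 115 in the PCL10 table at 100.2 kb. It had 90.6, 83.4 and 63.4 in the YBP2, PUS2 and OLE1 tables, at 228 to 243 kb, and 55.6 to 85.0 in the reference tables. The NDR 89 bp further on had 815 in the CDC43 table and 502 in the PCL10 table, against 399, 372 and 324 in the YBP2, PUS2 and OLE1 tables and 258 to 427 in the reference tables. The log2 ratios from CDC43 were 1.93 and 1.42. Of the local NDRs of that VP only LYS5/PEX14 was above the first, and only LYS5/PEX14 and NUT1 were above the second. The MPT5 NDRs, nearer to CDC43 at 47.0 and 48.4 kb, had 0.66 and 0.71. Fragments can cover both STR3 NDRs, so they are not 2 independent measurements. Among the reference tables the highest value at both was that of SHC1, the table read without methionine. The SHC1 VP also lies near MET6, a Met4 target, and the study reported contacts from it at other Met4 targets. Whether medium or VP position raised the SHC1 values was not tested. Without the SHC1 table the short STR3 NDR was also raised from YBP2, with 0.61, and the calls from CDC43 and PCL10 stood. With 12 reference tables the second STR3 NDR was not raised from PCL10, where it had 396 against up to 437 on the scale of all 17 tables.

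The longer MET13 NDR, chrVII:271748-272423, held the most GC dinucleotides of the chromosome and had the second highest reference level. It had 3880 in the PCL10 table, 2939 in the CDC43 table at 57.4 kb, 1686 in the YBP2 table at 118.9 kb, 1324 in the PUS2 table at 112.1 kb and 1148 in the OLE1 table at 127.3 kb. The reference tables held 930 to 1276, and the highest was again that of SHC1. The NDR was raised from PCL10, CDC43 and YBP2, and the PUS2 and OLE1 values lay above and within the reference range. The call from YBP2 (0.71) was lost at 2 times the reference median and with 12 reference tables, where YBP2 had 1345 against up to 1768 on the scale of all 17 tables. The SCS3/MET13 NDR, 168 bp from it, and the SOH1 NDR next to that had log2 ratios from CDC43 of 1.07 and 0.77, and fragments can again reach from one to the next.

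MUP1 lies on the right arm, 102 kb from CEN7, and YBP2, PUS2 and OLE1 lie 106, 113 and 97.6 kb from it on the left. The MUP1 NDR had 743 in the YBP2 table, 614 in the PUS2 table, 587 in the OLE1 table, 437 in the CDC43 table and 390 in the PCL10 table, against 291 to 440 in the reference tables (median 372). It was the only NDR raised from at least 3 VPs beyond 30 kb of each, and 0 NDRs of the other chromosomes were raised from 3 of these VPs. By the rule of the calls the YBP2, PUS2 and OLE1 values lay above all reference tables, while CDC43 and PCL10 lay within the range of the reference tables. The call is not firm: with 12 reference tables, which add TRP2 and MAT, the MUP1 level of 596 in MATalpha cells in galactose exceeded the 593, 486 and 465 of YBP2, PUS2 and OLE1 on the scale of all 17 tables, and all 3 calls were lost. The controls, medium and strains of those added tables differ.

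The mirrored stretch of the right arm, within 30 kb of the position as far from CEN7 as the VP, otherwise showed no shift against the reference tables. Its median log2 ratio was 0.01 over 23 NDRs from YBP2, 0.03 over 24 from PUS2, 0.06 over 21 from OLE1, -0.03 over 31 from CDC43 and 0.00 over 25 from PCL10, and MUP1 was the only NDR raised in it. On the rest of the right arm 0 NDRs were raised from any of the 5 VPs. Within 30 kb of CEN7 and within 30 kb of either end, 0 NDRs were raised as well. All 8 other NDRs raised beyond 30 kb lay on the left arm, with the VPs. By a ligation-based method, the study found from YBP2 a region of elevated contacts on the right arm, about as far from CEN7 as the VP. That region overlapped a few of the study's own MTAC contacts, and the paper proposes that the Rabl configuration may explain it. The ratios here set VPs against each other and use base means that hold the control libraries. Whether contacts in that region were elevated over the control was thus not tested.

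**Figure D4:**
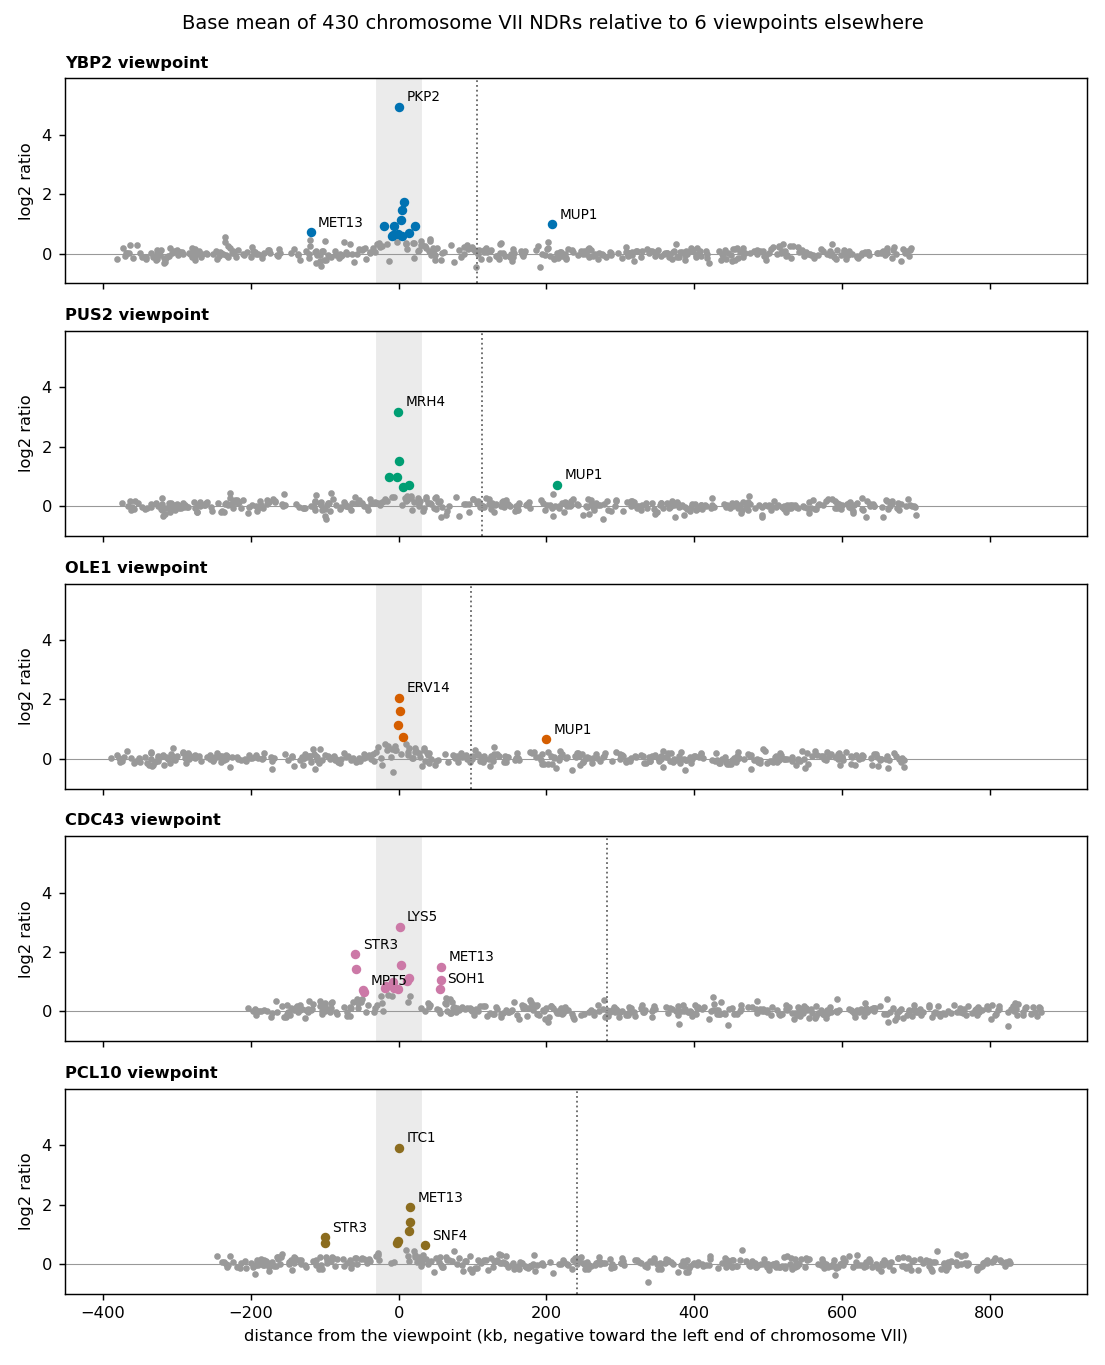
Log2 ratio (y axis) of the 430 NDRs against distance from the VP (x axis, kb), 1 panel per VP. Coloured points are raised, grey points are not, the shaded band is 30 kb to each side and the dotted line is CEN7. From YBP2, PUS2 and OLE1 the MUP1 NDR stands alone beyond CEN7 at 199.6 to 215 kb.

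The other NDRs raised far away were close to the threshold. From CDC43 they were the 2 of MPT5 (RNA-binding protein of the Puf family), and from PCL10 that of SNF4 (activating subunit of the Snf1 kinase), with 63.6 in the PCL10 table against 29.7 to 48.7 in the reference tables at 35.5 kb. With 12 reference tables SNF4 was not raised from PCL10, and of the 2 MPT5 NDRs and SOH1 from CDC43 only MPT5/TOS3 was. The next NDRs below the threshold included STR3 from YBP2 (0.56), that of YGL034C and MIG1 (a glucose repressor) from YBP2 (0.49), the NDR of FMP48 and YGR050C from PUS2 (0.42) and that of YPT32 from OLE1 (0.38). The VPS45 and SPT6 NDRs reached 0.46 and 0.47 from PCL10.

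Lowered NDRs were rarer. Over all NDRs the share was 0.0432% from YBP2, 0.0216% from PUS2, 0.0216% from OLE1, 0.0216% from CDC43 and 0.0649% from PCL10, which is 1 to 3 NDRs each. On chromosome VII the only one was an FMP48 NDR from PCL10, with 18.99 against 19.4 to 36.9 in the reference tables, 337 kb away, and it was not called without the VHR1, LHS1 or MBR1 table. The lowest ratios beyond 30 kb that were not called were -0.46 at NQM1 and -0.44 at ERP6 from YBP2, -0.44 at COQ8 from PUS2, -0.38 at NAT2 and RPL24B from OLE1 and -0.48 at EFG1 from CDC43, all of them NDRs with low levels in every table.

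Across all 5 tables at once, 4 chromosome VII NDRs were higher in each than in any reference table, those of ALG2, PYC1, HEM2 and MTL1, and 1 was lower, that of RPS26A. Over all NDRs 0.108% were higher and 0.151% lower in this way. HEM2 (heme synthesis) and MTL1 (a cell wall sensor) were not raised from any VP, with log2 ratios between 0.06 and 0.41.

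Read by gene group, the sulfur genes had 5 of their 6 NDRs raised from at least 1 VP, beside 8.14% of the 430 chromosome VII NDRs and 0.821% of all 4626. The calls were 2 from YBP2, 1 from PUS2, 1 from OLE1, 4 from CDC43 and 4 from PCL10. Those from PCL10 include 2 local ones. With 12 reference tables they were 0 from YBP2, PUS2 and OLE1, 4 from CDC43 and 3 from PCL10, on 4 NDRs. The 4 are the neighbouring pairs at STR3 and MET13, which fragments can span. The median log2 ratio of the 6 NDRs was 0.50 from YBP2, 0.33 from PUS2, 0.09 from OLE1, 1.246 from CDC43 and 0.81 from PCL10. Over all NDRs it was 0.00, where the scaling holds it. The sixth, of CYS4, had between -0.01 and 0.14. Of 23 NDRs at ribosomal protein genes, 3 were raised, all within 13.9 kb of a VP, again beside 8.14%, and the medians of the group were 0.01 to 0.08. Of 4 NDRs at genes of sugar metabolism (HXK2, PYC1, TDH3, ENO1) PYC1 alone was raised, and of 6 at genes of sterol and fatty acid synthesis OLE1 alone, both inside the YBP2 cluster. The 3 NDRs at nuclear pore genes (NUP49, NUP145, NUP57) had ratios between -0.23 and 0.21. The lists were drawn up with results of these data known, so their counts are not independent evidence.

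The NDRs raised beyond 30 kb were not average ones. Their median reference level was 303 and their median number of GC dinucleotides 17, beside 48.9 and 7 over all 430 NDRs. The 26 raised only within 30 kb had 63.4 and 6.5. CTGTGG occurred in 3 of the 9 and CACGTG in 2, beside 5.58% and 3.95% of the 430. The STR3 pair and the neighbouring SOH1, SCS3 and MET13 NDRs can share fragments, so the 9 are not independent. Among the 26 raised only within 30 kb CTGTGG occurred in 1 and CACGTG in 3. The 9 were also longer, with a median of 229 bp beside 182.5 bp for the 26 and 179 bp for the 430, and among NDRs of at least 200 bp the shares of CTGTGG and CACGTG were the 10.2% and 7.34% given above. Level and number of GC dinucleotides went together over the whole chromosome, and the part of level, GC dinucleotides and length in which NDRs were raised was not tested.

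With methionine in the medium, cells need the sulfur pathway less, and the TRP2 tables compare both states from a VP on chromosome V. Of 357 chromosome VII NDRs over the minimum, 5 were over 1.5 times higher without methionine and 5 lower, beside 1.89% and 1.81% of all 3804 NDRs. The SNF4 NDR had 36.7 without and 21.4 with methionine. The short STR3 NDR had 47.7 without and 32.8 with methionine (log2 ratio 0.53), the STR3/MND1 NDR 313 and 262 (0.25), and the MUP1 NDR 333 and 278 (0.26). The longer MET13 NDR had 1202 without and 1246 with methionine (-0.05). With 1 table each, these differences have no replicate check. They compare pooled base means with different control libraries. The study instead set targeted against control strains in each medium. From TRP2, which lies near MET6, it reported contacts at NDRs beside MET13 without methionine only. The ratios here do not measure that difference. The short STR3 NDR ranked only 102nd and the MUP1 NDR 568th among the 3804 ratios.

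The 4 YBP2 tables at 1 h have a control of their own and are set only against each other. The PKP2 NDR had 71.1, 213, 105 and 115 with 4, 8, 16 and 256 copies, so its level did not follow the copy number. The SDS23/OLE1 NDR had 316, 385, 357 and 576, and the PYC1 NDR 155, 224, 171 and 295, each highest with 256 copies. The MRH4/PUS2 NDR had 35.8, 36.9, 34.4 and 34.8. With 256 copies, 2 of 25 local NDRs and 12 of 338 far ones were raised over the median of the 3 lower copy numbers, beside 2.72% of all 3830 NDRs, so the far share of 3.55% was near that of the 3467 NDRs on other chromosomes (2.60%). The highest of them were the MET13 NDRs, the longer with 311, 329, 290 and 817, followed by TPO2/CBF2 with 291, 349, 303 and 754. MUP1 had 96.0, 94.7, 108 and 157. Raised NDRs in the 256-copy table were thus spread over the genome.

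**Figure D5:**
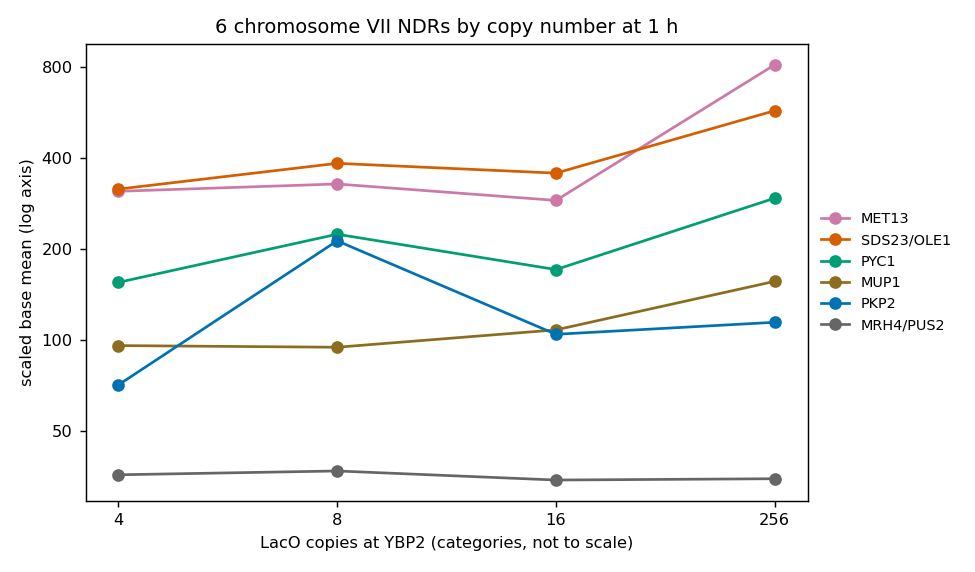
Scaled base mean (y axis, log axis) of 6 chromosome VII NDRs with 4, 8, 16 and 256 LacO copies at YBP2 after 1 h (x axis, categories), 1 line per NDR. MET13, 118.9 kb from YBP2, is at 817 with 256 copies and between 290 and 329 with fewer, and PKP2 is highest with 8 copies.

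From MAT the chromosome as a whole did not shift. The median log2 ratio of galactose over glucose was -0.00 over 373 NDRs in MATa cells and 0.05 over 301 NDRs in MATalpha cells, beside -0.01 and 0.02 over all NDRs. The middle 80% of chromosome VII NDRs lay between -0.39 and 0.52 in MATa and between -0.26 and 0.37 in MATalpha. These ratios set cells that went through switching against cells that did not. The MAT tables have lower summed base means than the 11 tables at 2 h, and among the NDRs named here ERV14 (-0.95) and AFT1 (-0.76) had the lowest ratios in MATa cells, with 70.3 and 179 in galactose and 136 and 305 in glucose. Others lay on the opposite side: the NDR by the tRNA gene next to ERV14 (0.84) had 48.8 in galactose and 26.8 in glucose, an FMP48 NDR (0.82) had 14.9 and 7.99, and MRH4/PUS2 (0.67) had 53.4 and 33.1. In MATalpha cells the ratios were -0.08 at ERV14 and 0.30 at AFT1. They were -0.04 at the NDR by the tRNA gene, 0.32 at the FMP48 NDR and 0.02 at MRH4/PUS2. Most of these MATa differences were thus not repeated in MATalpha cells. Each condition has 1 table, so these differences have no replicate check.

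Summed base means were 357048 to 477468 in the 11 tables and 168457 to 326279 in the other 10. Pearson's r of the log2 base means over 4622 NDRs was between 0.982 and 0.994 among the 11 tables, a description of tables for which the labels name 1 control pair. It was 0.915 to 0.980 between these and the TRP2 and MAT tables. The median SD of a chromosome VII NDR over the 6 reference tables was 0.11 on the log2 scale, and 8 of the 430 had an SD above 0.3, so differences of that size are within the spread for those NDRs.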

How the data were processed

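Per the labels and the study's methods, the authors trimmed reads with fastp 0.23.2, aligned them with BWA 0.7.17 to sacCer3, removed duplicates with Picard, counted reads over NDRs with featureCounts 2.0.3, a read going to every NDR it overlaps, and compared targeted with control libraries in DESeq2 1.38.0. The authors deposited 21 tables. The base mean, a signal averaged by the authors over the normalised counts of the libraries of a comparison (by the labels 2 targeted and 2 control), was used. The other 6 value columns hold the authors' own comparison (fold change, its error, test statistic and p-values) and were not used. No library has values of its own in the tables, so no error between replicates, interval or p-value was computed. Read totals per library, which the study lists, were not used, the base means keep no depth of a library, and unequal depth was dealt with only by the authors' normalisation. The number of tables limits the precision. Libraries without a table were not analysed here.

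Base means were scaled by the median ratio to the geometric mean of the tables compared, for the 11 tables at 2 h, the TRP2 pair, the MAT pairs and the 4 tables at 1 h separately. NDRs with a mean scaled base mean under 10 were left out of calls, 1 was added before log2, and calls used 1.5 times the reference median and the range of the 6 reference tables. The end of each NDR came from the study's list of NDRs, and gene starts, GC dinucleotides and motifs from RefSeq R64. Python 3.11.15 with numpy 2.4.6, pandas 2.3.3 and matplotlib 3.10.9 was used. The calls were also run on simulated base means with independent noise of 1 size in every table. There the base mean itself was changed and no controls were shared, so that run does not give the error of the calls here. Named NDRs were, for each VP, the 4 largest ratios within 30 kb, the 5 largest and 3 smallest beyond, NDRs raised from at least 3 VPs, and the gene lists, with exceptions given where they stand. Members and lists were chosen with earlier results of these data known. Alternatives were another scaling, removal of a running median over 201 NDRs, 12 reference tables, leaving out each reference table, no minimum or one of 30, a pseudocount of 0.5, 2 times instead of 1.5, and another VP position.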

Additional observations from a re-analysis of the deposited data

Results flagged for a closer look

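Among the 6 reference tables, 2 of the 42 named NDRs had 1 table far from the other 5 by Dixon's criterion for the gap to the nearest value. At the NDR of TYW3 and a tRNA gene, which was raised from OLE1, the LHS1 table held a scaled base mean of 90.9874, against 105.732 to 114.366 in the other tables. At the NDR of NAT2 and RPL24B the VHR1 table held 19.3503, against 15.307 to 16.5571 in the other tables. Chance flags about 1 in 20 groups, and the tables belong to different VPs rather than replicates.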

How the results depend on the processing

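No paired analysis was possible because the tables hold means over libraries. Over 212 alternative counts, 190 stayed within 1.5 times the reported count. These include counts of lowered NDRs that were 0 and stayed 0, so the share overstates how stable the raised counts were. Of 599 ratios of named NDRs under settings that change a ratio 21 moved by more than the spread of the reference tables, 16 of them with 12 reference tables, and 0 turned sign as called values. With 12 reference tables, 0 NDRs beyond 30 kb were raised from YBP2, PUS2 and OLE1, 0 were lowered from PCL10, and the local medians were 0.43 from YBP2, 0.21 from PUS2, 0.22 from OLE1 and 0.71 from CDC43. At 2 times the reference median, 4 NDRs beyond 30 kb were raised from CDC43 and 0 from the other 4 VPs, 0 were raised from at least 3 VPs, 0 were lowered from PCL10, and local counts were 4 from YBP2, 2 from PUS2 and 5 from CDC43. Scaled to the total, the local medians were 0.34 from YBP2, 0.29 from PUS2 and 0.33 from OLE1, those beyond 30 kb were -0.030 from YBP2, 0.053 from PUS2, 0.070 from OLE1 and 0.046 from PCL10, and 0 NDRs were lowered from PCL10, as with a minimum of 30. The sign of the YBP2 median beyond 30 kb thus depends on the scaling. Leaving out each reference table in turn gave 0 to 1 raised NDRs beyond 30 kb from OLE1, 2 to 3 from YBP2, 0 to 1 lowered NDRs from PCL10, 10 to 12 local raised NDRs from YBP2, and local medians of 0.36 to 0.42 from YBP2 and 0.20 to 0.27 from PUS2. The causes of these changes were not tested. Base means average targeted and control libraries, so small changes at low NDRs are not detectable here.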
